A study of Mus musculus with 5 samples.

Results

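A set of 10 genes of the bone morphogenetic protein (BMP) pathway was followed in RNA from embryonic mouse lenses, in which N-myc had or had not been deleted. They were chosen by gene symbol as the type I receptor genes Bmpr1a, Bmpr1b and Acvr1, the type II receptor gene Bmpr2, the SMAD genes Smad1, Smad4 and Smad5, and the target genes Id1, Id2 and Id3. All 10 had a row among the 12370 gene symbols of the deposited count table, and all 10 passed the filter on low counts. The lenses were taken at embryonic day 14. The 3 control libraries came from mice without Cre that had loxP-flanked Myc alleles, either N-myc alone (N-mycloxP/loxP) or N-myc and c-myc together (N-mycloxP/loxP;c-mycloxP/loxP), and the labels do not tie either genotype to a single library. The 2 knockout libraries came from mice with Mlr10-Cre+/- and N-mycloxP/loxP. Every library thus carried loxP-flanked N-myc, while the Cre transgene was present in the knockouts only, so effects of Cre and of the deletion cannot be told apart. Mlr10-Cre is driven by a modified alpha-A-crystallin promoter that is active in lens cells, and other cells in a dissected lens keep N-myc. Lenses of single animals were lysed and then pooled before RNA was purified, and the labels do not state how many animals made up a pool.

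BMPs are secreted ligands that bring type I and type II receptor kinases together. The type II receptor phosphorylates the type I receptor, which phosphorylates SMAD1 and SMAD5, and these bind SMAD4 and enter the nucleus to regulate genes. The Id genes are widely used as direct readouts of this pathway: their products are helix-loop-helix proteins that lack a DNA-binding region and hold basic helix-loop-helix factors away from DNA. In the mouse lens, BMP signalling through type I receptors is known to act in lens induction, in the survival and growth of lens cells and in fibre differentiation.

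Promoter windows of 300 bases (250 before to 50 after a RefSeq start, GRCm38.p6) were found for 8 of the 10 genes, 12 windows in all. No window was available for Id1 and Smad4. The windows below are shown because Bmpr1a and Bmpr2 are the receptor genes for which both knockout libraries lay below all control libraries, and Bmpr1b is the type I receptor gene with the lowest level. They are from chr14:34502497-34502796 (Bmpr1a, minus strand), chr1:59764029-59764328 (Bmpr2, plus strand) and chr3:141982215-141982514 (Bmpr1b, minus strand, 1 of 3 windows), written 5′ to 3′. Capitals mark GGCGCC, a GC-rich element bound by SMAD1 and SMAD5.
Bmpr1a: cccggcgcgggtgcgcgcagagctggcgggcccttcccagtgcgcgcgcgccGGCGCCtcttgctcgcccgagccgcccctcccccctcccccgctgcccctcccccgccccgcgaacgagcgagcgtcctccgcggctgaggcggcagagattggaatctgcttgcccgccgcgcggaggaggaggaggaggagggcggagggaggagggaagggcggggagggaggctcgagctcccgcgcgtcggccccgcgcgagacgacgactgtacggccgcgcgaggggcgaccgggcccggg
Bmpr2: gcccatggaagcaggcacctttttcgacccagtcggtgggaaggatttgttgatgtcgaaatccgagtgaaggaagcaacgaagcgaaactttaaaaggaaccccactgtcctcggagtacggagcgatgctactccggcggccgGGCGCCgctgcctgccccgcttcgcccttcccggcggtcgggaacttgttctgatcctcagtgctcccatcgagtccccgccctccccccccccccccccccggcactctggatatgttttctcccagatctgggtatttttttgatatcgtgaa
Bmpr1b: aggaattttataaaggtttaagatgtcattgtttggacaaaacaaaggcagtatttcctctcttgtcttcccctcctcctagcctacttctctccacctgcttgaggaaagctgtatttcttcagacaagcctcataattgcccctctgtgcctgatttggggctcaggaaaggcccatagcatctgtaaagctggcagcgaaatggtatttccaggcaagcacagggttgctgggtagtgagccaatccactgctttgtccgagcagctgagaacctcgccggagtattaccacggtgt
The GGCGCC match began at -198 from the start in the Bmpr1a window and at -105 in the Bmpr2 window, and the Bmpr1b window had 0 matches. The motif reads the same on both strands and stood in 5 of the 12 windows (2 of them overlapping Smad5 windows that share the match), against 21.8% of the 11961 windows of tested genes. The E-box CACGTG, which MYC family dimers with MAX bind and which also reads the same on both strands, stood in 0 of the 12 windows, against 10.02% of the windows of tested genes. With 0 matches of CACGTG, an overlap of the 2 motifs could not occur in these windows. A match describes the letters of a window and does not show that a factor binds there. The windows also differed in composition. The Bmpr1a window had a GC content of 79.3% and 48 CpG pairs, that of Bmpr2 59.3% and 23, and that of Bmpr1b 48.3% and 5. Over the windows of all tested genes the medians were 61.3% and 21.

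The libraries held 13162384 to 13746416 counts. Mycn, the deleted gene, was counted 801 and 1141 times in the knockout libraries and 2066, 1955 and 1848 times in control replicates 1 to 3, so its transcripts were reduced and not absent, and the counts cover the whole gene, with loxP positions not stated in the labels. Lens markers were abundant, with the alpha-A-crystallin gene Cryaa at 41907 to 51879 CPM (counts scaled to a common library size with TMM factors) in all 5 libraries. The knockout libraries stood apart from each other as well as from the controls. Along principal component 1 (61.7% of the variance), scores were -22.0 to -20.1 for controls, 51.5 for the library of knockout replicate 1 and 12.1 for that of replicate 2. Summed over 10 mesenchyme markers, knockout replicate 1 had 2021 CPM and knockout replicate 2 had 351 CPM, against 179 to 481 CPM in the controls, and 3 of the 10 markers were called higher. Summed over the 10 measured of 11 retina markers, the knockouts had 289 and 419 CPM and the controls 258 to 289 CPM, with 6 called higher and 1 lower. The 11 lens fibre markers summed to 20513 and 25608 CPM in the knockouts and to 30947 to 37907 CPM in the controls, with 8 called lower. The 7 pericyte markers summed to 345 and 282 CPM in the knockouts and to 228 to 248 CPM in the controls, with 3 called higher, and the 8 lens epithelium markers to 4247 and 4175 CPM against 3758 to 3940 CPM, with 0 called. Over all tested genes, 7.98% were called higher and 8.51% lower. In such bulk samples, fewer cells of a type and less RNA per cell cannot be told apart. Where these values move with a result below, their part in it was not tested. The series describes the libraries of a group as biological replicates and gives no litter or batch, so the p-values rest on the spread between pools.

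Of the 10 genes, 1 was called lower in the knockout lenses and 0 were called higher (edgeR quasi-likelihood test, Benjamini-Hochberg adjusted p under 0.05 over the 12035 genes tested). Bmpr1a was the gene called. Over all tested genes 8.51% were called lower, 7.98% higher and 16.5% in either direction, so 1 call among 10 genes lies near that background. DESeq2 and limma-voom likewise called Bmpr1a lower and 0 of the 10 higher, where over all genes 10% were lower and 9.76% higher with DESeq2, and 7.56% lower and 6.81% higher with limma-voom. At an unadjusted edgeR p under 0.05 there were 2 of the 10, Bmpr1a (lower) and Id1 (higher), against 35.8% of all tested genes. The median log2 fold change of the 10 genes was 0.0006, with 5 above 0 and 5 below, against 0.002 over all tested genes. The knockouts lay above all controls for 1 of the 10 genes and below all controls for 2, whereas over all tested genes 25.5% lay above and 27% below (52.5% in either direction).

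**Figure D1:**
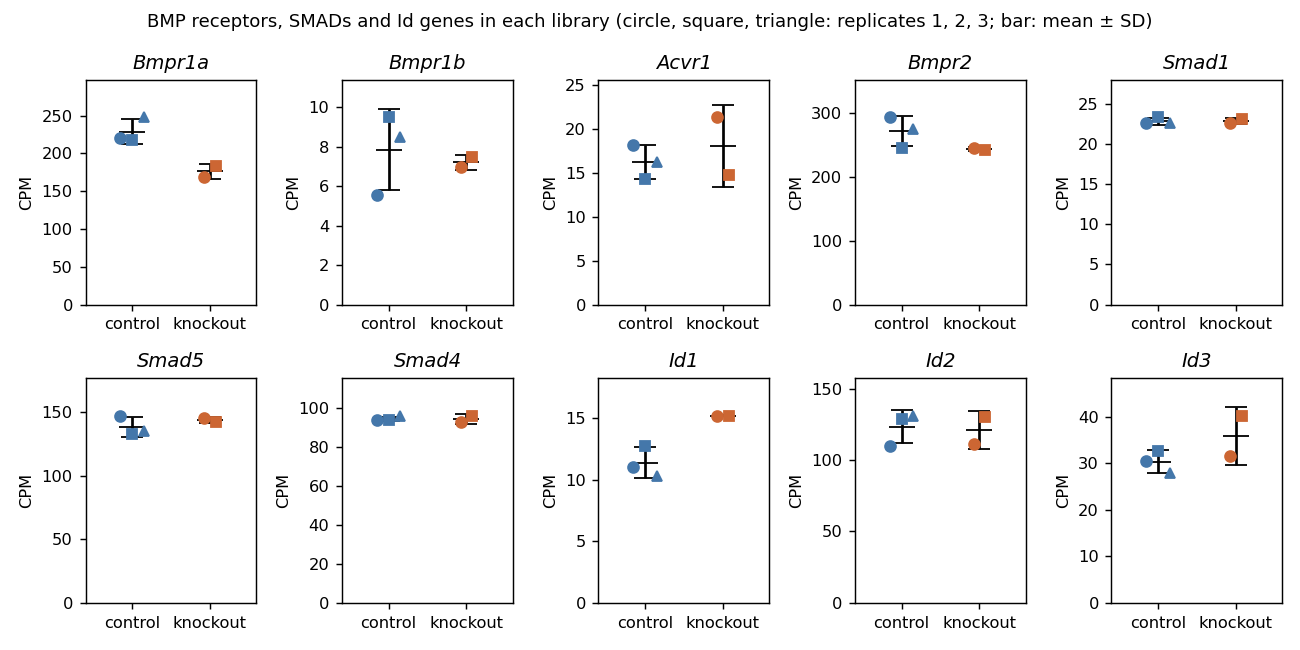
Expression in CPM (vertical axes, linear from 0) of each gene in the 3 control libraries (blue) and the 2 knockout libraries (orange), with the mean ± SD of each group. Bmpr1a and Bmpr2 lie lower and Id1 higher in both knockout libraries than in any control, and the groups overlap for the other 7 genes.

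Bmpr1a, the gene for the type I receptor also called ALK3 (chromosome 14, 34410734 to 34503341, minus strand, GRCm38), fell 1.30-fold in the knockouts. Its values were 220.4, 218 and 248 CPM in control replicates 1 to 3 and 169 and 183 CPM in knockout replicates 1 and 2, and the groups did not overlap. The means were 229 ± 16.7 CPM (SD, n = 3) and 176 ± 10.1 CPM (SD, n = 2), and the log2 fold change was -0.38 (SE 0.092, 95% interval -0.59 to -0.16, edgeR adjusted p = 0.0343). An antisense transcript, Gm17110, overlaps 4.57% of its exon bases, and no strand setting is stated by which its reads could be separated. Its sign was negative in each of 15 alternatives and passed in 8 of them (edgeR, DESeq2 or limma-voom adjusted p from 0.00226 to 0.26). Without control replicate 2, control replicate 3 or knockout replicate 1 the log2 fold change was -0.40, -0.31 and -0.32, and it did not pass (edgeR adjusted p = 0.0965, 0.107 and 0.182). These 3 fits called 38, 237 and 292 of all genes in either direction, against 1984 with all libraries. The call was also lost when libraries were scaled by their totals alone (0.068), and with trends on transcript GC content and length removed, where the log2 fold change was -0.19 (0.0872).

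Acvr1 encodes ALK2, a type I receptor used by BMP7 among other ligands. It stood at 18.2, 14.3 and 16.2 CPM in the controls and at 21.3 and 14.8 CPM in the knockouts. Knockout replicate 1 was the highest of the 5 libraries and knockout replicate 2 lay within the controls. The log2 fold change was 0.15 (SE 0.19, 95% interval -0.28 to 0.59, edgeR adjusted p = 0.588), and it was -0.13 without knockout replicate 1, the library with the high mesenchyme markers. Bmpr1b, the gene for ALK6, was the lowest of the receptor genes, with raw counts of 71, 125 and 112 (controls) and of 97 and 104 (knockouts). Its 2 knockout values, 6.94 and 7.46 CPM, lay inside the control range of 5.57 to 9.49 CPM. The log2 fold change of -0.13 had a 95% interval of -0.69 to 0.44 (SE 0.24, edgeR adjusted p = 0.742), which leaves room for changes larger than that of Bmpr1a in either direction.

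Bmpr2 encodes the type II receptor that is largely dedicated to BMP ligands. Its values were 294, 246.43 and 276 CPM in the controls and 246.40 and 242 CPM in the knockouts. The higher knockout library thus fell short of the lowest control by less than 0.1 CPM. The means of 272 ± 24.1 CPM (SD, n = 3) and 244 ± 2.99 CPM (SD, n = 2) gave a log2 fold change of -0.16 (SE 0.096, 95% interval -0.38 to 0.06), which did not pass the test (edgeR adjusted p = 0.276, and 0.215 to 0.732 over 15 alternatives).

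Smad1 and Smad5 encode the SMADs that BMP receptors phosphorylate, and Smad4 the partner shared with the TGF-beta and activin branches. For these genes the libraries lay close together. Smad4 stood at 93.5, 93.9 and 95.6 CPM in the controls and at 92.5 and 95.9 CPM in the knockouts. The knockout values bracketed the controls, and the log2 fold change of -0.002 had a 95% interval of -0.17 to 0.17 (SE 0.074, edgeR adjusted p = 0.988). Smad1 stood at 22.6, 23.3 and 22.5 CPM in the controls and at 22.6 and 23.1 CPM in the knockouts. Both knockout libraries lay inside the control range, and the log2 fold change of 0.003 had a 95% interval of -0.24 to 0.25 (SE 0.11, edgeR adjusted p = 0.987). Smad5 stood at 147, 133 and 135 CPM in the controls and at 146 and 142 CPM in the knockouts. These too lay inside the control range, and the log2 fold change was 0.06 (SE 0.081, 95% interval -0.13 to 0.24, edgeR adjusted p = 0.641). In fold terms the intervals ran from 0.888 to 1.12 for Smad4, from 0.845 to 1.19 for Smad1 and from 0.914 to 1.18 for Smad5, so larger changes than these lay outside the 95% intervals. A missed threshold does not show equal levels, and phosphorylation of SMAD proteins is not measured by RNA counts.

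Id1 encodes an Id protein that is induced quickly by BMP in many cell types. It stood at 11.1, 12.8 and 10.3 CPM in the controls and at 15.17 and 15.21 CPM in the knockouts, from 141, 168 and 136 raw counts and from 212 in each knockout library. Both knockout libraries lay above all controls. The means were 11.4 ± 1.25 CPM (SD, n = 3) and 15.2 ± 0.025 CPM (SD, n = 2). The log2 fold change of 0.42 (SE 0.15, 95% interval 0.07 to 0.76, unadjusted p = 0.0241) did not pass the test over all genes (edgeR adjusted p = 0.0887), nor in any of 15 alternatives (0.0506 to 0.259), although its sign was the same in all 15. Id1 is also known from endothelial cells. The 10 endothelial markers summed to 278 and 299 CPM in the knockouts and to 279 to 322 CPM in the controls. Of these markers, 0 were called higher and 1, Flt1, was called lower. Like Id1, the summed pericyte, lens epithelium and macrophage markers lay above all controls in both knockout libraries. These sums lean on their most abundant genes. Notch3 (pericyte) stood at 86.2 to 127 CPM in the controls and at 170 and 143 CPM in the knockouts. Sfrp1 (lens epithelium) stood at 1551 to 1642 CPM in the controls and at 1946 and 1912 CPM in the knockouts. Not all markers rose: the pericyte marker Rgs5 and the lens epithelium marker Cdh1 lay below all controls in both knockout libraries. The macrophage sums were 46.9 and 49.0 CPM against 23.1 to 46.1 CPM. The lens fibre and red blood cell sums lay below all controls. The part of any of these cells in the Id1 values was not tested.

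Id3 encodes a protein that binds the same partners as Id1. It stood at 30.5, 32.7 and 27.9 CPM in the controls and at 31.5 and 40.2 CPM in the knockouts. Knockout replicate 2 was the highest of all and knockout replicate 1 lay within the controls, so the groups overlapped. On the log2 scale the fold change was 0.24 (SE 0.13, 95% interval -0.06 to 0.54, edgeR adjusted p = 0.226). It was 0.41 without knockout replicate 1 and 0.05 without knockout replicate 2. The summed retina markers were at 289 CPM in knockout replicate 1 and at 419 CPM in replicate 2.

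Id2, which encodes a further Id protein, had the most counts of the 3 Id genes. It stood at 110.1, 129 and 131 CPM in the controls and at 111 and 130.4 CPM in the knockouts. The knockout libraries spanned almost the whole control range, and the log2 fold change was -0.03 (SE 0.11, 95% interval -0.28 to 0.22, edgeR adjusted p = 0.873). With trends on GC content and length removed it was 0.22 (edgeR adjusted p = 0.0654), so the sign of this value depends on the processing.

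**Figure D2:**
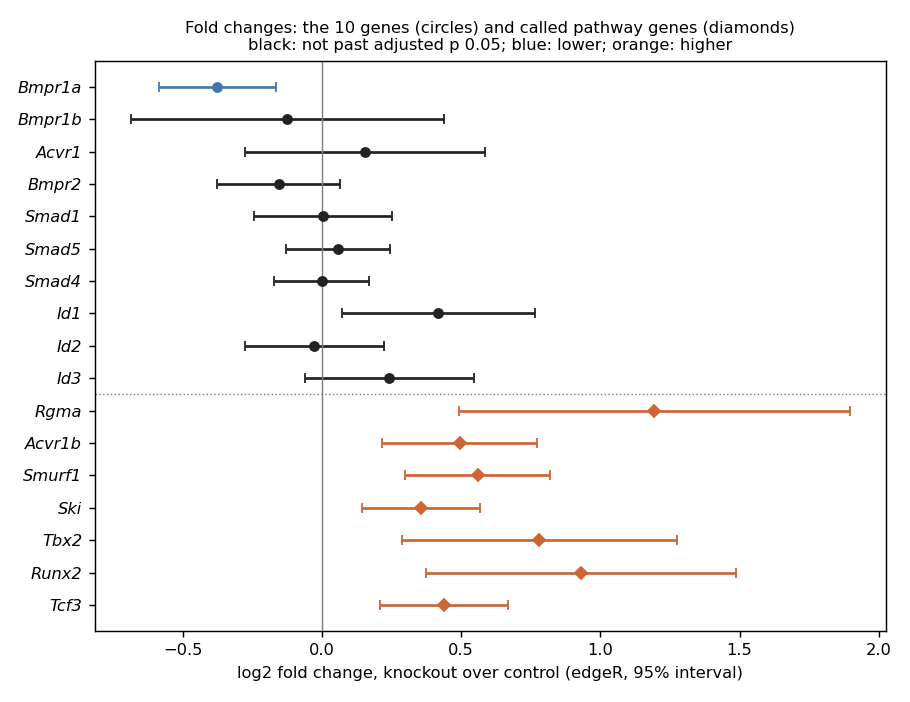
Log2 fold changes of knockout over control (horizontal axis) with 95% intervals from edgeR, for the 10 genes (circles) and for the other pathway genes called (diamonds); blue is called lower, orange called higher and black not called. Among the 10 genes the intervals of Bmpr1a and Id1 leave out 0, and of these Bmpr1a alone passed the adjusted threshold.

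Levels between genes were compared as CPM per kilobase of exon, with the exon length of all GENCODE transcripts of a gene joined. In the controls the order ran from Id2 (50.6 ± 4.71, SD, n = 3) through Bmpr1a (36.0 ± 2.62), Smad4 (25.4 ± 0.292), Smad5 (18.7 ± 1.07), Id3 (16.9 ± 1.36), Bmpr2 (15.1 ± 1.34), Id1 (9.81 ± 1.07), Smad1 (3.64 ± 0.068) and Acvr1 (3.36 ± 0.406) to Bmpr1b (1.32 ± 0.342). The control ranges of Smad5 and Id3, of Id3 and Bmpr2 and of Smad1 and Acvr1 overlapped, so these neighbours were not ordered beyond their spread. Among all tested genes with a length, Id2 lay at percentile 96.1 of this level in the controls, Bmpr1a at 93.7, Smad4 at 89.8 and Bmpr1b at 13.7. In the knockouts Bmpr1a was still the second of the 10, at 27.8 ± 1.59 CPM per kilobase (SD, n = 2). It there lay near Smad4 (25.4 ± 0.657). The joined exon length counts long alternative ends in full (17983 bases for Bmpr2), so levels per kilobase of such genes may be understated.

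Shares within a gene family do not depend on library scaling. The sums here cover only the chosen genes, so other receptor genes such as Acvrl1, and Id4, were left out. Of the summed CPM per kilobase of Bmpr1a, Bmpr1b and Acvr1, Bmpr1a made up 88.1%, 88.3% and 89.1% in the controls, against 82.7% and 87.0% in the knockouts. Both knockout libraries were below all controls, but replicate 2 by about 1 percentage point only. Acvr1 made up 9.56%, 7.60% and 7.67% in the controls, against 13.7% and 9.22% in the knockouts, which overlapped. Of the summed level of Id1, Id2 and Id3, Id2 made up 63.0%, 64.3% and 68.8% in the controls, against 59.8% and 60.1% in the knockouts. Id1 made up 13.3%, 13.4% and 11.4% in the controls, against 17.1% and 14.7% in the knockouts. For both Id genes the groups did not overlap. With 3 against 2 libraries an exact two-sided rank test cannot go below p = 0.2, so these shares are given as a description.

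**Figure D3:**
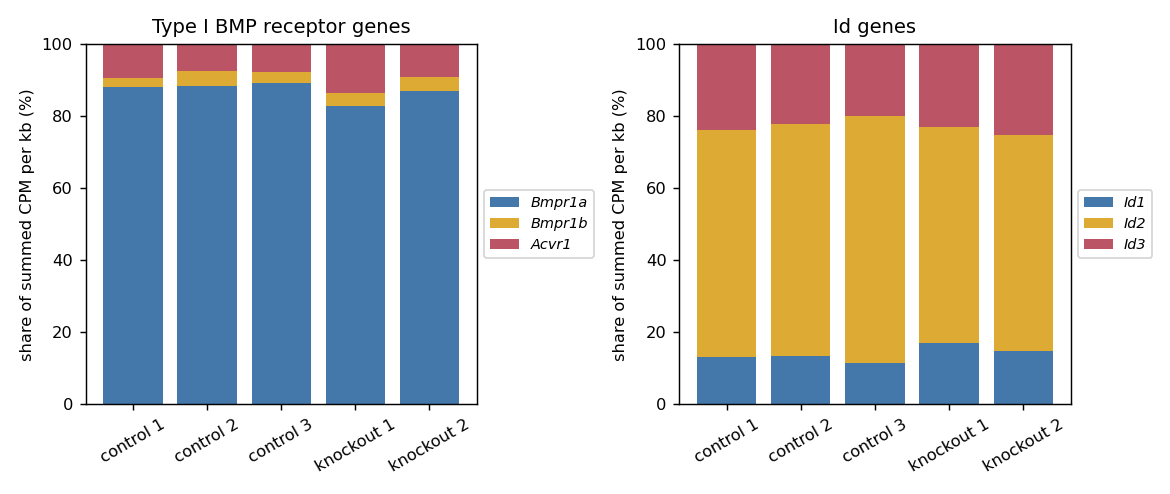
Share of each gene (vertical axis, %) in the summed CPM per kilobase of its family, for each of the 5 libraries. Bmpr1a holds 82.7% to 89.1% of the sum for Bmpr1a, Bmpr1b and Acvr1, and Id2 holds 59.8% to 68.8% of the sum for Id1, Id2 and Id3.

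Fold changes across all tested genes went with the GC content of the transcripts, and the 10 genes are spread over that range. In the lowest of 5 equal ranks of GC content (31.0% to 43.9%, 2361 tested genes), 21% were called lower and 1.57% higher, and the median log2 fold change was -0.24. Bmpr2 (41.0%), Bmpr1a (41.3%) and Bmpr1b (42.2%) all lie in this range. The log2 fold change of Bmpr1a, -0.38, lay below that median, and those of Bmpr2 and Bmpr1b, -0.16 and -0.13, lay above it. At the other end, Id1 (54.7%) lies in a GC range (51.6% to 55.5%) with a median of 0.12, and Id3 (55.6%) in the highest range with a median of 0.26, against their own 0.42 and 0.24. With each library's trend on GC content and length removed, 0 of the 10 genes were called by edgeR. Their log2 fold changes then ran from -0.19 for Bmpr1a to 0.50 for Id1 (edgeR adjusted p = 0.0546). The part of GC content in these values was not tested further.

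**Figure D4:**
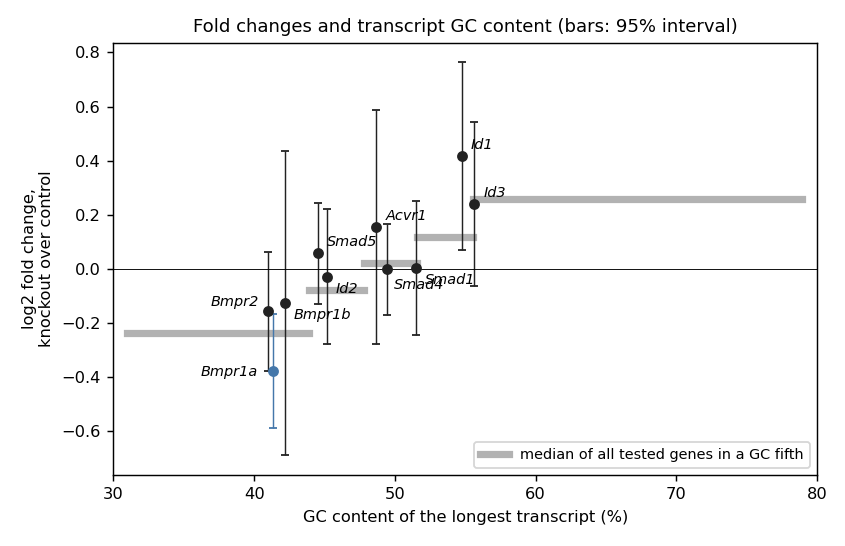
Log2 fold change (vertical axis) with 95% interval against the GC content of the longest transcript (horizontal axis, %) for the 10 genes, with the median of all tested genes in each of 5 equal ranks of GC content as grey bars. The 3 receptor genes Bmpr1a, Bmpr1b and Bmpr2 lie in the rank with the lowest GC content, where the median was -0.24.

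**Figure D5:**
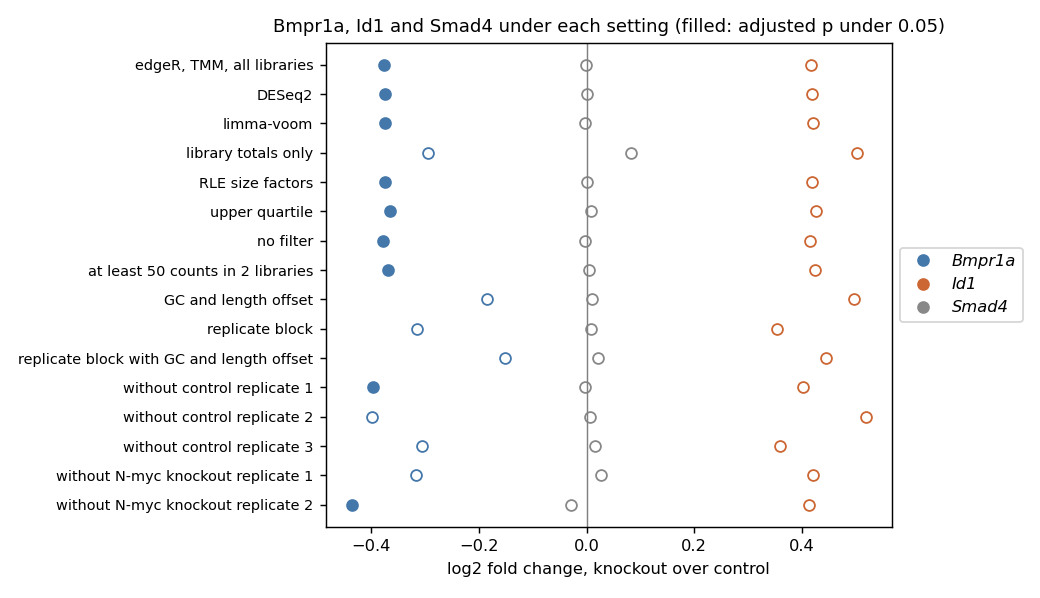
Log2 fold change (horizontal axis) of Bmpr1a, Id1 and Smad4 with all libraries and under each of the 15 alternatives; filled symbols have an adjusted p under 0.05. Bmpr1a is filled in the main setting and in 8 alternatives, and Id1 and Smad4 in none of those shown.

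Beyond these 10 genes, 69 further gene symbols of the pathway, older and newer names included, were listed by role. Of these symbols, 46 had a row in the count table and 44 were tested. Of the 44, 7 were called higher and 0 lower by edgeR, against 7.98% and 8.51% of all tested genes. At an unadjusted edgeR p under 0.05, 20 were higher and 1 lower, against 18.2% and 17.6% of all tested genes. DESeq2 called 8 higher and 1 lower, Fkbp1a, against 9.76% and 10% of all genes, and limma-voom 5 higher and 0 lower, against 6.81% and 7.56%. Of the 7 called by edgeR, Rgma and Tbx2 did not pass with limma-voom (limma-voom adjusted p = 0.0664 and 0.06). The median log2 fold change was 0.24, against 0.002 over all tested genes. The list was drawn up with earlier results of these data known, so this is a description of the listed genes. Of the listed genes, 0 were called higher without control replicate 2, 1 without control replicate 3, 1 without knockout replicate 1, and 14 without knockout replicate 2. The same fits called 21, 132, 179 and 1426 of all genes higher, against 960 with all libraries. With trends on GC content and length removed, 1 gene was called higher (Id4) and 1 lower (Fkbp1a).

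Of 13 ligand genes, 3 were tested and 0 called, with 2 at an unadjusted edgeR p under 0.05, both higher (18.2% of all tested genes). Bmp7, a ligand with a known role in lens induction, was by far the most expressed. It stood at 42.64, 42.65 and 44.6 CPM in the controls and at 44.0 and 49.4 CPM in the knockouts (log2 0.11, SE 0.093, edgeR adjusted p = 0.434). Bmp3, which can oppose other BMPs, stood at 0.470, 0.607 and 3.57 CPM in the controls and at 9.02 and 3.30 CPM in the knockouts (log2 1.98, SE 0.76, edgeR adjusted p = 0.102). Control replicate 3 and knockout replicate 1, the libraries of their groups with the highest mesenchyme markers (481 and 2021 CPM), were also the highest in Bmp3. The log2 fold change was 3.50 without control replicate 3 (edgeR adjusted p = 0.045) and 1.09 without knockout replicate 1. With the replicate number as a block it was 3.36 (edgeR adjusted p = 0.0238). Of 15 genes for extracellular antagonists and BMP-binding proteins, 7 were tested and 0 called, with 2 at an unadjusted edgeR p under 0.05, both higher (18.2% of all tested genes). Crim1, a transmembrane protein that binds BMPs and is known to act in the mouse lens, was the most expressed, at 1860 ± 78.7 CPM in the controls (SD, n = 3) and 2030 ± 93.9 CPM (SD, n = 2) in the knockouts, which is 0.13 on the log2 scale (SE 0.091, edgeR adjusted p = 0.356). Fstl1, a secreted follistatin-like protein, had 446 ± 14.1 CPM in the controls and 511 ± 73.1 CPM in the knockouts (log2 0.20, SE 0.11, edgeR adjusted p = 0.212).

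Of 5 tested co-receptor genes, 1 was called higher, Rgma, and 0 lower (7.98% and 8.51% of all tested genes). At an unadjusted edgeR p under 0.05, 4 were higher and 0 lower (18.2% and 17.6% of all tested genes). Rgma, a co-receptor that enhances BMP signalling, stood at 8.54, 6.91 and 8.96 CPM in the controls and at 25.6 and 11.6 CPM in the knockouts (2.29-fold, log2 1.19, SE 0.30, edgeR adjusted p = 0.0381). Both knockout libraries exceeded all controls, most of all knockout replicate 1, which had the highest mesenchyme markers. Without that library the log2 fold change was 0.52 (edgeR adjusted p = 0.229). Without control replicate 1, 2 or 3 it was 1.24, 1.10 and 1.28, and these did not pass either (edgeR adjusted p = 0.0745, 0.129 and 0.092). With trends on GC content and length removed it was 0.79 (edgeR adjusted p = 0.125). Of 6 tested other receptor genes of the TGF-beta family, 1 was called higher and 0 lower (7.98% and 8.51% of all tested genes). At an unadjusted edgeR p under 0.05, 2 were higher and 0 lower (18.2% and 17.6% of all tested genes). The gene called was Acvr1b, which encodes the activin receptor ALK4. It stood at 24.9, 23.6 and 21.02 CPM in the controls and at 35.0 and 30.3 CPM in the knockouts (1.41-fold, log2 0.49, SE 0.12, edgeR adjusted p = 0.0343). The groups did not overlap. Without control replicate 2, control replicate 3 or knockout replicate 1 the log2 fold change was 0.52, 0.44 and 0.39 and did not pass (edgeR adjusted p = 0.114, 0.106 and 0.188), and with trends on GC content and length removed it was 0.31 (0.0789). Smad2 and Smad3, the SMADs of that branch, had log2 fold changes of 0.08 (SE 0.081, edgeR adjusted p = 0.497) and 0.26 (SE 0.093, edgeR adjusted p = 0.0901).

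Of 10 further inhibitor genes, 2 were called higher and 0 lower by edgeR, against 7.98% and 8.51% of all tested genes. At an unadjusted edgeR p under 0.05, 3 were higher and 1 lower, against 18.2% and 17.6% of all tested genes. Smurf1 encodes a ubiquitin ligase that targets SMAD1 and SMAD5. It rose 1.47-fold, from 33.8, 29.2 and 27.2 CPM in the controls to 44.7 and 43.9 CPM in the knockouts (log2 0.56, SE 0.11, edgeR adjusted p = 0.0218). Ski, a co-repressor that binds SMADs, rose 1.28-fold, from 210, 188 and 179 CPM to 252 and 239 CPM (log2 0.35, SE 0.092, edgeR adjusted p = 0.0396). For both genes the groups did not overlap. Without control replicate 2, control replicate 3 or knockout replicate 1 neither passed. The log2 fold change of Smurf1 was then 0.55, 0.50 and 0.55 (edgeR adjusted p = 0.0895, 0.0661 and 0.0917) and that of Ski 0.35, 0.31 and 0.32 (edgeR adjusted p = 0.124, 0.115 and 0.182). With trends on GC content and length removed the log2 fold changes were 0.27 for Smurf1 (edgeR adjusted p = 0.0726) and 0.06 for Ski (0.462).

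Of 8 tested further SMAD target genes, 2 were called higher, Runx2 and Tbx2, and 0 lower (7.98% and 8.51% of all tested genes). At an unadjusted edgeR p under 0.05, 4 were higher and 0 lower (18.2% and 17.6% of all tested genes). Runx2, a transcription factor known from bone, stood at 5.25, 3.87 and 3.95 CPM in the controls and at 9.73 and 6.89 CPM in the knockouts (1.91-fold, log2 0.93, SE 0.24, edgeR adjusted p = 0.0397). Tbx2, a T-box factor also known from the dorsal retina, stood at 10.1, 10.4 and 11.8 CPM in the controls and at 14.03 and 23.0 CPM in the knockouts (1.72-fold, log2 0.78, SE 0.21, edgeR adjusted p = 0.0448). All knockout values of both genes lay above the controls. Runx2 was higher in knockout replicate 1, as were the mesenchyme markers (2021 and 351 CPM in replicates 1 and 2), and Tbx2 in knockout replicate 2, as were the retina markers (289 and 419 CPM); their part in these values was not tested. Without control replicate 2, control replicate 3 or knockout replicate 1 the log2 fold change of Runx2 was 0.87, 0.88 and 0.66 and did not pass (edgeR adjusted p = 0.13, 0.118 and 0.232). That of Tbx2 was 0.74, 0.77 and 0.86 without control replicate 1, 2 or 3 (edgeR adjusted p = 0.0904, 0.133 and 0.0946) and 0.38 without knockout replicate 2 (0.163). With trends on GC content and length removed the values were 0.80 for Runx2 (edgeR adjusted p = 0.059) and 0.32 for Tbx2 (0.447).

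Of the 3 genes for basic helix-loop-helix partners of the Id proteins, 1 was called higher and 0 lower (7.98% and 8.51% of all tested genes). At an unadjusted edgeR p under 0.05, 2 were higher and 0 lower (18.2% and 17.6% of all tested genes). The gene called was Tcf3, which encodes E12 and E47. It stood at 102, 86.9 and 83.3 CPM in the controls and at 125 and 120.4 CPM in the knockouts (1.35-fold, log2 0.44, SE 0.099, edgeR adjusted p = 0.0292). The groups did not overlap. Without control replicate 2, control replicate 3 or knockout replicate 1 the log2 fold change was 0.42, 0.39 and 0.41 and did not pass (edgeR adjusted p = 0.103, 0.0859 and 0.131), and with trends on GC content and length removed the log2 fold change was 0.10 (edgeR adjusted p = 0.29).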

How the data were processed

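RNA of lenses from 3 control and 2 N-myc knockout pools was sequenced. The values used are raw counts, per the file headers, in a single table that the authors deposited, with 12370 gene symbols (61 of them at 0 in all libraries). Per the submitters' processing notes, the build was mm10 and the tools were DESeq2, Cufflinks 2.2.1, HTSeq 0.6.1, TopHat2 2.0.13 and Trim Galore 0.3.7, whose roles are not stated. Which annotation and strand setting were used, and how symbols were kept, the labels do not state.

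Sample titles gave the groups. The main test used edgeR 4.0.16 in R 4.3.3: filterByExpr (minimum count 10, 335 symbols removed), TMM scaling, glmQLFit and glmQLFTest without covariates, and Benjamini-Hochberg adjustment over 12035 genes (threshold 0.05). CPM were scaled by TMM. The SE is the size of the log2 fold change over the root of the F statistic. The procedure was tested on simulated data. Alternatives used DESeq2 1.42.0, limma 3.58.1, other scalings and filters, a loess offset on GC content and length of the longest GENCODE M21 transcript (known for 98.1% of tested genes), a replicate block, and each library left out. Libraries of a group differed beyond sampling noise (chi-square over its degrees of freedom 9.98 to 23.4), so each counted as 1 sample. The 10 genes and all lists were chosen with earlier results of these data known. Named were all 10 genes, Mycn, and of each role list up to 4 called genes by adjusted p, or the 2 with the highest CPM where none was called. Fkbp1a, Id4, Nbl1, Flt1, Notch3, Sfrp1, Rgs5 and Cdh1 were named after their values were seen. Positions are GENCODE M21 (GRCm38, the build mm10).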

Additional observations from a re-analysis of the deposited data

How the results depend on the processing

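The sign of the log2 fold change was the same in all 15 alternatives for Bmpr1a, Bmpr2, Smad5, Id1 and Id3, but not for Bmpr1b, Acvr1, Smad1, Smad4 and Id2, none of which was called in any of them. The 10 genes gave 0 higher calls in every alternative. In the alternatives that kept all 5 libraries they gave 1 lower call, or 0 with library totals only, with the GC and length offset and with either replicate block fit. Over all genes, 1511 were higher and 637 lower with library totals only (960 and 1024 with TMM), and 473 were higher and 731 lower with the GC and length offset. Of the other pathway genes, 11 were higher with library totals only, and 1 higher and 1 lower with the GC and length offset; DESeq2 called 1 lower. The labels do not state whether libraries with the same replicate number were paired. Deviations of same-numbered libraries from their group means correlated at -0.097 (replicate 1) and -0.002 (replicate 2) across genes. With 2 knockout libraries the deviations of the knockouts mirror each other, so these values cannot decide whether a pairing exists. With the replicate block 473 genes were higher and 522 lower, with 0 of the 10 genes and 3 other pathway genes called. These 3 were Rgma, Bmp3 and Nbl1, all higher. Acvr1b, Smurf1, Ski, Runx2, Tbx2 and Tcf3 did not pass with the block (edgeR adjusted p from 0.0514 to 0.0867). With the block and the GC and length offset 226 were higher and 376 lower, with 1 other pathway gene called higher, Bmp3, and 0 lower. With 1 library left out in turn, 21 to 1426 genes were higher and 17 to 1291 lower, 0 to 1 of the 10 genes was lower, and 0 to 14 other pathway genes were higher and 0 to 1 lower; a knockout group of 1 library is then assumed to vary like the controls. Bmpr1b, at 71 to 125 counts, had an SE of 0.24, and its control libraries spread over 0.77 on the log2 scale. A change as large as that of Bmpr1a lay inside its 95% interval (-0.69 to 0.44) and could not be told from no change.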
